A study of Homo sapiens with 24 samples.

Results

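The scrambled siRNA controls of 2 knockdown experiments in A549 cells were compared with each other. A549 cells are an established line grown from a lung adenocarcinoma. The members were defined by their labels and were 7 of the 24 RNA-seq libraries of the series. This comparison and the gene lists below were chosen with earlier results of these data known. The siControl group held 4 libraries and accompanied the single knockdowns of MYBL2 (siMYBL2) and FOXM1 (siFOXM1). The siControl_Both group held 3 libraries and accompanied the double knockdown (siBoth). All 7 were labelled wild type (WT), carried no gene-directed siRNA, and shared a protocol with 25 nM of a negative control siRNA and the DharmaFECT1 reagent. The protocol named DMEM or RPMI medium with fetal bovine serum and penicillin for all samples and did not say which medium, passage, day or RNA preparation each experiment had. The siControl_Both concentration was not given apart from that shared protocol. Medium, culture, transfection, extraction and library preparation therefore cannot be told apart as differences between the controls. The methods of the study call its RNA-seq replicates biological, and the labels do not say what set one replicate apart from the next, so the p-values below measure the spread between these libraries.

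Scrambled siRNA is meant to load the same delivery reagent into the cell without a target transcript. Cells nevertheless respond to their culture conditions. In epithelial cells, NF-kB is a family of transcription factors that is held in the cytoplasm by inhibitor proteins such as IκBα and, once released, switches on cytokine, chemokine and adhesion genes together with its own inhibitors. AP-1 and the immediate early genes answer serum and growth factor signals within minutes. Keratins and cell junction genes mark epithelial identity, and the sterol and unfolded protein programs follow the load on lipid and secretory pathways. A count table also holds a record of library preparation, because polyA capture and fragment selection change how well short, unspliced or mitochondrial transcripts are recovered.

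Between 23964711 and 28880535 read pairs fell on genes in the siControl libraries and between 23373997 and 27659364 in the siControl_Both libraries. In a principal component analysis of 12500 genes, the first component held 61.7% of the variance and separated the groups, and the second held 18.4% and set siControl replicate 4 apart from the other siControl libraries. The targeted genes did not pass the test between the controls. MYBL2, a MYB family regulator of cell cycle genes, measured 147.5, 157.9, 179.6 and 133.1 CPM (counts per 1 M counted pairs, with library sizes scaled by TMM) in siControl replicates 1 to 4 and 157.1, 193.5 and 171.9 CPM in siControl_Both replicates 1 to 3. Its log2 fold change, siControl_Both over siControl here and below unless stated, was 0.18 ± 0.11 (SE, adjusted p = 0.252). FOXM1, a forkhead activator of mitotic genes, ranged from 107.9 to 139.8 CPM in siControl and from 125.9 to 144.5 CPM in siControl_Both, with a log2 fold change of 0.12 ± 0.10 (adjusted p = 0.376). The groups overlapped for both genes. By comparison, MYBL2 measured 4.56 to 8.73 CPM in the siMYBL2 libraries and 6.19 to 9.81 CPM in the siBoth libraries.

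Of 15963 genes tested, 1114 were higher (6.98%) and 1225 were lower (7.67%) in siControl_Both than in siControl when a call needed a change of over 1.5-fold and an adjusted p below 0.05. Together they made up 14.7% of the genes tested, and in 2259 of these 2339 genes the libraries of the groups did not overlap. Changes of more than 4-fold were measured for 91 higher and 115 lower genes. The median log2 fold change of all tested genes was 0.01. Without siControl replicate 4 the counts were 1139 higher and 1128 lower.

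The clearest gene group by its counts was that of NF-kB targets and chemokines. Of the 34 members tested, 28 were higher in siControl_Both and 0 were lower, against 6.98% of all genes higher and 7.67% lower. At an unadjusted p under 0.05, 31 were higher and 0 lower in edgeR, and DESeq2 called 28 higher and 0 lower. The median log2 fold change of the 34 was 1.58, and 29 had all siControl_Both libraries above all siControl libraries, a pattern that 20.5% of all genes tested showed. Without siControl replicate 4, 27 of 34 were higher. Without siControl_Both replicate 2, 20 of 35 were higher. Under glmTreat, which asks for a change above 1.5-fold itself, 12 of 34 were higher. None was lower in any alternative run.

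Promoter sequences of members of this group are shown because a κB-like word recurs in them close to the start of transcription. RefSeq promoters (GRCh38.p14, the assembly behind hg38) were searched over 300 bases, 250 before and 50 after each start, for GGNNTTTCC on both strands. The word was found in 14 of 25 members called higher that had a RefSeq promoter, or 56%, in 1 of 3 tested members that were not called, in 2 of 4 members that were not tested, and in 746 of 11503 promoters of genes tested between the controls (6.49%). The 250 bases before the start are printed 5′ to 3′ on the gene's strand, with each match in capitals. The list was drawn up as NF-kB targets, so a share above that of all promoters goes with the choice of the list and is not tied to the calls. The match is a description of letters and does not show that a factor was bound.
CXCL8 (chr4:73740319-73740568, plus strand): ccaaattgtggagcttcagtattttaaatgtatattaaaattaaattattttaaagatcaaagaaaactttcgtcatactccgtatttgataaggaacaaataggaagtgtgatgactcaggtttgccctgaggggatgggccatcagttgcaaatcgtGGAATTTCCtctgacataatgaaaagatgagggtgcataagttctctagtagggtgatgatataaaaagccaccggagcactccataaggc
IL6 (chr7:22726950-22727199, plus strand): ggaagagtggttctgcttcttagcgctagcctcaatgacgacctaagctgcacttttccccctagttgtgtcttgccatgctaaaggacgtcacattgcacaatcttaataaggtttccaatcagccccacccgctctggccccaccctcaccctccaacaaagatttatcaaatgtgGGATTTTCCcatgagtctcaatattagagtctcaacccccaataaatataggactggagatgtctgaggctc
CXCL1 (chr4:73869143-73869392, plus strand): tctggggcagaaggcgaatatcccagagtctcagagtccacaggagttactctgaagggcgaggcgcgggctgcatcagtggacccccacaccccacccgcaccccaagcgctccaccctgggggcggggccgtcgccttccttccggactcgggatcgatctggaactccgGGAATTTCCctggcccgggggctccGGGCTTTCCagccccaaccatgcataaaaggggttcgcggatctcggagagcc
TNFAIP3 (chr6:137867009-137867258, plus strand): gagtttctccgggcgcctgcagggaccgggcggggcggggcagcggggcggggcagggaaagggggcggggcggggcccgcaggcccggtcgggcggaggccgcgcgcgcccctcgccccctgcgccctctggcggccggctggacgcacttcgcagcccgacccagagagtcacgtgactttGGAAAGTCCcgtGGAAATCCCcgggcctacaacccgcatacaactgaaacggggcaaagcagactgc
NFKBIA (chr14:35404750-35404999, minus strand): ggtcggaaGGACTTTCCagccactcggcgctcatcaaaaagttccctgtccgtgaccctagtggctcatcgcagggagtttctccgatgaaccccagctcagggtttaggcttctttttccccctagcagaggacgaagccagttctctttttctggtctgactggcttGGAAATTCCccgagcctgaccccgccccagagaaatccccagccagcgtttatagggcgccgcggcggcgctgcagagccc
The CXCL8 match began 91 bases before the start and the IL6 match 72 bases before it. CXCL1 held 2 matches, 78 and 53 bases before its start, and CXCL2 on the minus strand of the same chromosome held 2 at 77 and 53 bases.

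IL6, a cytokine of fever and the acute phase, had the largest rise among the tested genes that averaged 100 or more counts in a library. It measured 1.33, 0.534, 0.597 and 0 CPM in siControl replicates 1 to 4 and 19.3, 23.5 and 14 CPM in siControl_Both replicates 1 to 3. Every siControl_Both library stood over 10 times above the highest siControl library. The log2 fold change was 4.94 ± 0.57 (adjusted p = 0.000815). CXCL8 encodes interleukin-8, which draws neutrophils. Its values were 105, 82.2, 55.6 and 11.7 CPM in siControl and 423.3, 571.4 and 324.4 CPM in siControl_Both. The groups did not overlap, and siControl replicate 4 was far below its own group. The log2 fold change was 2.79 ± 0.57 (adjusted p = 0.00767), and 2.44 without that library.

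CCL2, the monocyte chemokine, was also lowest in replicate 4 within siControl, at 20.4, 16.9, 25.2 and 3.72 CPM in siControl against 104.4, 163.4 and 59.4 CPM in siControl_Both (log2 fold change 2.72 ± 0.53, adjusted p = 0.00639). CCL20, which attracts lymphocytes and dendritic cells to epithelia, measured 0.211 to 1.14 CPM against 6.32 to 13.9 CPM (log2 fold change 3.82). The neutrophil chemokines CXCL1, CXCL2 and CXCL3 lie with CXCL8 on chromosome 4 and rose by 2.24, 2.18 and 1.85 on the log2 scale. CXCL1 lost its call without siControl replicate 2 and without siControl_Both replicate 2, and CXCL3 without the latter. In all 4 chemokines siControl_Both replicate 3 was the lowest of its group and siControl replicate 4 the lowest of its own. Colony-stimulating factors rose too, with CSF3 (G-CSF) at 0.0422 to 0.877 CPM against 8.36 to 14.1 CPM and CSF2 (GM-CSF) at 0.0422 to 0.915 CPM against 3.8 to 11.2 CPM. The interleukin-1 ligands IL1A and IL1B had log2 fold changes of 4.33 and 3.23, and IL1B lost its call without siControl_Both replicate 2.

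ICAM1, the adhesion receptor that holds leukocytes, measured 5.53, 3.81, 3.34 and 1.73 CPM in siControl and 33.4, 48 and 33.1 CPM in siControl_Both. Its log2 fold change was 3.41 ± 0.31 (adjusted p = 0.000352). The feedback genes of the pathway rose with its targets. TNFAIP3 encodes A20, an enzyme that shuts the pathway off, and measured 22.4, 25.7, 17.1 and 6.76 CPM against 122.4, 166.4 and 130.8 CPM (log2 fold change 2.96 ± 0.36, adjusted p = 0.000954). NFKBIA encodes IκBα and measured 107.6, 112.9, 82.3 and 66.3 CPM against 244.8, 298.2 and 239.7 CPM (log2 fold change 1.51 ± 0.18, adjusted p = 0.000892). No siControl library reached the lowest siControl_Both library in either gene.

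The subunits of NF-kB had smaller fold changes than the genes above. RELA, the p65 activator, measured 81.5 to 95.2 CPM in siControl and 135.8 to 141.8 CPM in siControl_Both, a log2 fold change of 0.62 ± 0.07 (adjusted p = 0.000859) that fell short of the fold threshold without siControl replicate 4. NFKB1, the p105 precursor, rose by 0.81 on the log2 scale. NFKB2, the p100 precursor, rose by 0.91 (adjusted p = 0.0426) but kept its call in only 2 of 7 fits with a library left out. RELB had a log2 fold change of 0.69 (adjusted p = 0.0895) and REL one of 0.20 (adjusted p = 0.198), so neither passed the test. PTGS2, the inducible prostaglandin synthase, rose by 1.56 on the log2 scale, and in this gene siControl replicate 4 was the highest of its group at 418.7 CPM, still under the lowest siControl_Both library at 761.7 CPM. TNF was at no more than 0.0831 CPM in siControl and was not tested.

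**Figure D1:**
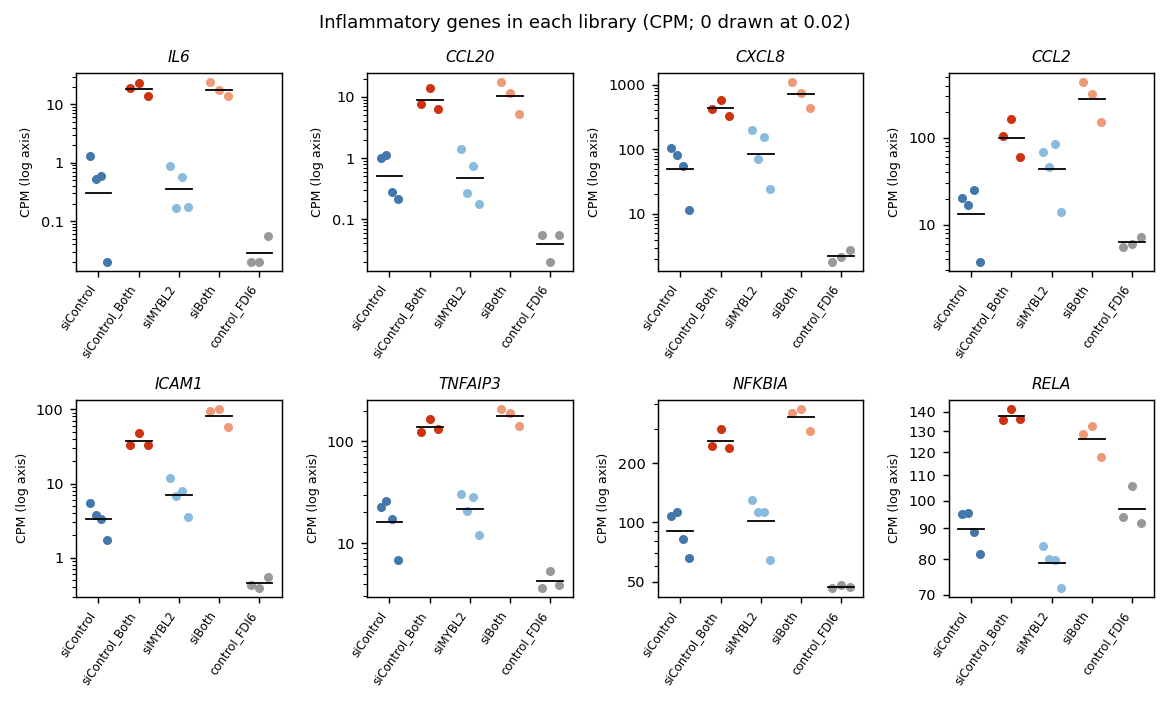
CPM on a log axis of 8 NF-kB pathway genes in each library of the siControl, siControl_Both, siMYBL2, siBoth and control_FDI6 groups, where each point is a library, bars are geometric means and values of 0 are drawn at 0.02. All siControl_Both libraries lie above all siControl libraries in each panel, and CXCL8 ranges from 11.7 to 105 CPM in siControl and from 324.4 to 571.4 CPM in siControl_Both.

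Fibrinogen, acute-phase and complement genes were read as a further group. Of 29 members tested, 8 were higher and 1 was lower, against 6.98% of all genes higher and 7.67% lower. The median log2 fold change was 0.21, and it moved to 0.79 without siControl replicate 4 and to -0.14 without siControl_Both replicate 1. With a library left out, 8 to 10 members were higher. With at least 10 counts asked of every library, 4 of 21 were higher, and with the replicate block 12 of 29 were. C3, the central complement protein, was the most abundant of those that rose, at 203.2, 110.2, 175.6 and 182.5 CPM in siControl and 939, 717.5 and 619.1 CPM in siControl_Both (log2 fold change 2.18 ± 0.21, adjusted p = 0.00045). The complement proteases C1R and C1S rose by 1.53 and 1.23, and the complement factor CFB by 3.79 on the log2 scale. SAA1 and SAA2 encode serum amyloid A and are near-identical copies, so reads may be split between them. SAA1 rose from 0.0416 to 0.229 CPM in siControl to between 1.19 and 9.7 CPM in siControl_Both. LBP, which hands bacterial lipopolysaccharide to its receptor, rose from between 0.153 and 1.18 CPM to between 9.12 and 12.6 CPM (log2 fold change 4.38 ± 0.47, adjusted p = 0.000648). SOCS3, the feedback inhibitor of IL-6 family receptors, measured 15.8 to 26.3 CPM against 66.8 to 82 CPM (log2 fold change 1.90). The fall was in FOXA1, an endodermal forkhead factor, at 60.9, 64.9, 53.8 and 78 CPM against 39.9, 26 and 24.3 CPM (log2 fold change -1.09 ± 0.19, adjusted p = 0.00396). FGA, a fibrinogen chain made by A549 cells, spread widely within each group, from 35 to 179.1 CPM in siControl and from 43.2 to 207.1 CPM in siControl_Both, and did not pass the test (adjusted p = 0.679).

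Of 26 immediate early and AP-1 genes tested, 12 were higher and 2 were lower, against 6.98% of all genes higher and 7.67% lower, with a median log2 fold change of 0.76. EGR1, a zinc-finger factor induced by growth signals, measured 9.19, 14, 3.9 and 6.72 CPM in siControl and 158.9, 36.5 and 80.1 CPM in siControl_Both. The siControl_Both libraries differed among themselves by more than 4-fold and all lay above siControl (log2 fold change 3.45 ± 0.53, adjusted p = 0.00239). FOS, a subunit of AP-1, followed the same order at 102.5, 9.05 and 35.9 CPM in siControl_Both, and its groups overlapped because siControl replicate 4 reached 12 CPM. FOS lost its call without siControl_Both replicate 1. The early response gene IER3 and the phosphatase DUSP1 were steadier, at 71.4 to 96.3 CPM against 165.6 to 198.5 CPM and at 120.2 to 160.6 CPM against 228 to 310.6 CPM. JUND, the AP-1 subunit kept in resting cells, moved the other way, at 87.7 to 97.6 CPM against 48.3 to 51.7 CPM (log2 fold change -0.86 ± 0.06, adjusted p = 0.000165). KLF2, a factor that restrains inflammatory genes in endothelium, was the other to fall (log2 fold change -1.22, adjusted p = 0.0287) and lost its call without siControl replicate 2, siControl_Both replicate 2 or siControl_Both replicate 3.

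INHBA, the activin A subunit, measured 0.998, 0.801, 0.527 and 0.296 CPM in siControl and 9.36, 16.7 and 13 CPM in siControl_Both (log2 fold change 4.31 ± 0.34, adjusted p = 0.000186). PTX3, a secreted pattern-recognition protein, measured 0.549 to 2.25 CPM against 5.94 to 16.5 CPM. TDO2, which opens the tryptophan ring, measured 2.25 to 3.58 CPM against 13.9 to 25.6 CPM, and CREB5, a relative of ATF2, 0.76 to 1.86 CPM against 6.15 to 12.2 CPM. HBEGF, a ligand of the EGF receptor, rose by 1.91 on the log2 scale and lost its call without siControl_Both replicate 2. Of 24 genes of ERK output and feedback, 7 were higher and 1 was lower, against 6.98% of all genes higher and 7.67% lower. The higher count fell to 3 without siControl_Both replicate 3 and to 4 without siControl_Both replicate 2 or siControl replicate 1. Of 27 TGF-beta targets, 6 were higher and 1 was lower, and 10 were higher without siControl replicate 3. Of 30 YAP/TAZ-TEAD targets 4 were higher and none was lower, among them CCN1 and CCN2, matricellular proteins that rose by 0.92 and 0.93.

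Of 43 interferon-stimulated genes tested, 6 were higher and 5 were lower, against 6.98% of all genes higher and 7.67% lower, with a median log2 fold change of 0.22. These counts depended on single libraries, with 3 higher and 5 lower without siControl_Both replicate 1, 4 and 2 without replicate 2, where the median was 0.04, 7 and 2 without replicate 3, and 7 and 3 without siControl replicate 1. HLA-B, a class I antigen-presenting chain, measured 5.87 to 10.3 CPM in siControl and 18.6 to 30.9 CPM in siControl_Both (log2 fold change 1.71 ± 0.22, adjusted p = 0.00121), and other class I genes share sequence with it. IRF1, which is also on the NF-kB list, rose by 1.16. SAMD9, an antiviral factor, fell from between 16.7 and 22.5 CPM to between 6.59 and 11.1 CPM (log2 fold change -1.22 ± 0.19, adjusted p = 0.00256). IFIT1, which binds viral RNA ends, measured 1.51 to 3.13 CPM against 0.442 to 1.28 CPM (log2 fold change -1.40, adjusted p = 0.022) and kept its call in 4 of 7 fits with a library left out. The interferon gene IFNB1 had no count in any of the 7 libraries.

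**Figure D2:**
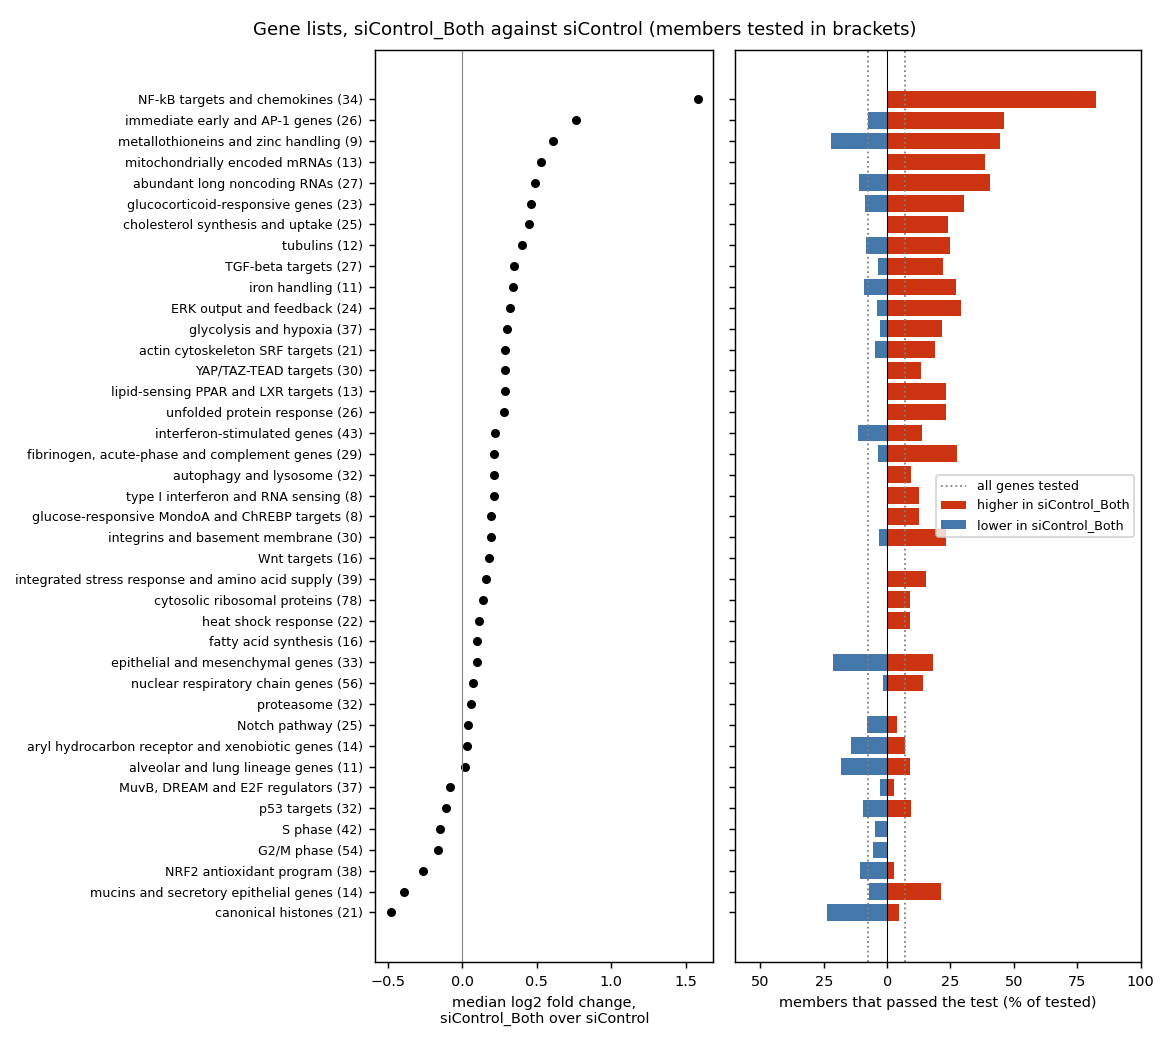
Median log2 fold change (left) and share of tested members higher or lower in siControl_Both than in siControl (right, %) for each gene list with at least 5 members tested, with the share over all genes tested as dotted lines. NF-kB targets and chemokines stand at the top with a median of 1.58, followed by immediate early and AP-1 genes at 0.76.

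Several epithelial genes were lower in siControl_Both. EPCAM, the epithelial adhesion molecule, measured 11.1, 17, 7.41 and 36 CPM in siControl and 3.79, 2.99 and 4.16 CPM in siControl_Both, with siControl replicate 4 the highest (log2 fold change -2.28 ± 0.52, adjusted p = 0.0115). It lost its call without siControl_Both replicate 2. KRT8, a simple-epithelium keratin, measured 4588.4, 4226.6, 3437.7 and 4053.6 CPM against 2853.8, 2136.4 and 1597.1 CPM (log2 fold change -0.88 ± 0.19, adjusted p = 0.00937). KRT19 measured 215.8 to 321.2 CPM against 37.7 to 118.4 CPM (log2 fold change -1.70), whereas KRT18, the partner of KRT8, overlapped between the groups at a log2 fold change of -0.14 (adjusted p = 0.553). In bulk RNA, fewer cells that express a gene and less RNA per cell cannot be told apart.

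KRT4, a keratin of mucosal surfaces, was among the largest falls at 13, 25.5, 3.86 and 23 CPM in siControl and 1.51, 0.805 and 0.84 CPM in siControl_Both (log2 fold change -3.95 ± 0.67, adjusted p = 0.00345). CEACAM5, a glycoprotein of epithelial tumours, fell by 3.14 on the log2 scale and varied from 6.24 to 40.4 CPM within siControl. It was the 1 lower gene of 14 mucin and secretory epithelial genes tested. In that list 3 were higher, namely MUC1, LCN2 and PIGR, against 6.98% of all genes higher and 7.67% lower. Without siControl_Both replicate 1, 1 was higher and 5 were lower. The tight-junction genes CLDN3 and CLDN4 fell by 2.72 and 1.27, while CLDN1, of the same family, rose by 0.78 (adjusted p = 0.0173) and lost its call without siControl_Both replicate 2 or 3. BCAS1 fell by 3.03. The lung and foregut factor SOX2 measured 36.3 to 60.7 CPM against 17.1 to 27.9 CPM (log2 fold change -0.99 ± 0.22, adjusted p = 0.0102). Of 11 alveolar and lung lineage genes tested, SOX2 and FOXA1 were the 2 lower and AGER the 1 higher, with a median of 0.02. None of that list was higher without siControl_Both replicate 1 or without siControl_Both replicate 3. CDH1 (E-cadherin) did not pass the test at -0.37 (adjusted p = 0.572). On the mesenchymal side, VIM (vimentin) measured 226.7 to 370.4 CPM against 475 to 549.7 CPM, a log2 fold change of 0.67 that fell to 0.53 and lost its call without siControl replicate 4, and the call was also lost without siControl_Both replicate 2. The mesenchymal regulators were divided, since the repressors SNAI1 and ZEB2 rose by 1.12 and 1.41 and the helix-loop-helix factors TWIST1 and TWIST2 had log2 fold changes of -0.75 and -0.98 (adjusted p = 0.0392 and 0.00107). TWIST1 kept its call in 1 of 7 fits with a library left out, the one without siControl replicate 3. Of the 33 epithelial and mesenchymal genes tested, 6 were higher and 7 were lower, against 6.98% of all genes higher and 7.67% lower. The list as a whole had a median of 0.10, which turned to -0.08 without siControl_Both replicate 1 and to -0.09 without siControl_Both replicate 3.

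The markers listed for lung adenocarcinoma were mostly keratin and epithelial adhesion genes, so they cannot check a lung origin. Of 8 genes listed, 6 were tested, 3 were lower and none was higher, against 6.98% of all genes higher and 7.67% lower. The list summed to 6434.6 to 7903.8 CPM in siControl and 3823.2 to 5793 CPM in siControl_Both. None of 8 A549 landmark genes tested passed the edgeR test, 1 was lower at an unadjusted p under 0.05 and DESeq2 called 0, with sums of 13501.9 to 17047.3 CPM and 10351.6 to 13077 CPM. AKR1B10, an aldo-keto reductase abundant in this line, measured 2516.6 to 3829.4 CPM in siControl and 1507.6 to 2949.2 CPM in siControl_Both. Markers of other cell types were at low levels in both groups. Leukocyte markers summed to 39.8 to 52.4 CPM and 56.1 to 60.8 CPM with 0 of 3 tested genes called by edgeR or DESeq2 and 1 at an unadjusted p under 0.05, and CD3E was at 0. Fibroblast markers summed to 23.9 to 39 CPM and 35.6 to 48.8 CPM, with COL3A1 and LUM lower (log2 fold changes -2.10 and -2.22) among 5 tested. Endothelial markers summed to 1.65 to 5.11 CPM and 1.86 to 3.06 CPM. Erythroid markers summed to at most 0.0913 CPM, and HBA2 was at 0.

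Several sterol genes and the lipid droplet gene PLIN2 were higher in siControl_Both. Of 25 genes of cholesterol synthesis and uptake, 6 were higher and 0 were lower, against 6.98% of all genes higher and 7.67% lower, with a median log2 fold change of 0.45. FDPS, which makes farnesyl pyrophosphate, measured 38.3, 40.2, 44.8 and 42.7 CPM in siControl and 95.7, 98.5 and 104.6 CPM in siControl_Both (log2 fold change 1.27 ± 0.07, adjusted p = 5.37e-05). HMGCS1, an early enzyme of the pathway, measured 141 to 173.9 CPM against 256 to 279.1 CPM. PLIN2, which coats lipid droplets, measured 46.7, 41.2, 41.5 and 38.8 CPM against 108.2, 118.5 and 122.8 CPM (log2 fold change 1.48 ± 0.08, adjusted p = 5.37e-05). None of 16 fatty acid synthesis genes passed the edgeR test, although 5 were higher and 3 lower at an unadjusted p under 0.05, and DESeq2 called 0. ANGPTL4, a lipase inhibitor induced by fatty acids and hypoxia, measured 13.3, 19.7, 14.8 and 67.4 CPM against 109.2, 81.2 and 81 CPM. Its call at a log2 fold change of 1.67 (adjusted p = 0.0391) was kept in 1 of 7 fits, the one without siControl replicate 4, where it was 2.51. PLIN2 and ANGPTL4 stand among 13 tested targets of the lipid sensors PPAR and LXR, of which 3 were higher and 0 were lower. With a library left out, 2 to 3 were higher and 0 to 1 lower. The median of 0.29 was 0.09 with GC content and length corrected.

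Some genes of the unfolded protein and integrated stress responses rose. Of 26 unfolded protein response genes, 6 were higher and 0 were lower, against 6.98% of all genes higher and 7.67% lower. They included the sensor ERN1 (log2 fold change 1.21 ± 0.17, adjusted p = 0.00187), the chaperone HYOU1 (0.94) and the degradation factors HERPUD1 (0.92) and SYVN1 (0.93). HSPA5, the main chaperone of this compartment, was below the fold threshold at 0.47 (adjusted p = 0.036). Of 39 genes of the integrated stress response and amino acid supply, 6 were higher and 0 were lower, with a median of 0.16, and 4 to 7 were higher with a library left out. DDIT3, the CHOP factor, measured 11.7, 14, 7.55 and 6.38 CPM in siControl and 24.1, 31.8 and 29.2 CPM in siControl_Both (log2 fold change 1.52 ± 0.26, adjusted p = 0.00339). ATF4, the factor that drives that response, was not called at 0.40 (adjusted p = 0.013). Of 9 metallothionein and zinc handling genes tested, 4 were higher and 2 were lower. The metallothioneins MT2A and MT1X, which bind zinc and copper, rose by 1.79 and 2.38. MT2A measured 152.9 to 320.3 CPM against 650.5 to 1053 CPM, and related metallothionein genes share sequence. SLC39A14, a zinc importer, rose by 0.68, whereas the zinc exporter SLC30A1 and the importer SLC39A10 had log2 fold changes of -0.63 and -0.61 (adjusted p = 0.00182 and 0.00648). SLC30A1 lost its call without siControl_Both replicate 2 and SLC39A10 without siControl replicate 4. With GC content and length corrected, 2 members of this list were higher and 0 were lower. Of 38 genes of the NRF2 antioxidant program, 1 was higher and 4 were lower, and 3 were higher and 6 lower without siControl_Both replicate 1. GCLM, a subunit of the enzyme that starts glutathione synthesis, measured 175.8 to 217.4 CPM against 95.3 to 106.8 CPM (log2 fold change -0.98 ± 0.09, adjusted p = 0.00044), whereas NQO1 was not called at -0.05.

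**Figure D3:**
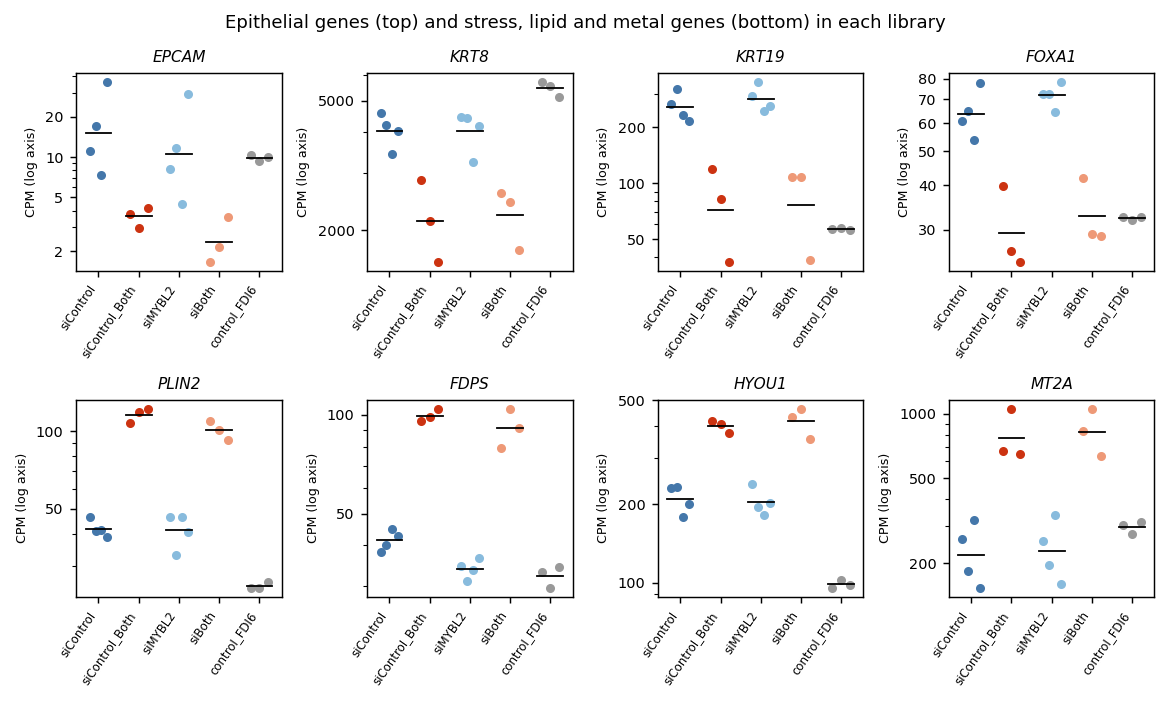
CPM on a log axis of 4 epithelial genes (top) and 4 lipid, stress and metal genes (bottom) in each library of 5 groups, where each point is a library and bars are geometric means. The siControl_Both libraries lie below all siControl libraries in the top panels and above them in the bottom panels, and FDPS lies at 38.3 to 44.8 CPM in siControl and 95.7 to 104.6 CPM in siControl_Both.

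Hypoxia-responsive genes differed within the groups as well as between them. Of 37 genes of glycolysis and hypoxia, 8 were higher and 1 was lower, against 6.98% of all genes higher and 7.67% lower. Without siControl replicate 4 the higher count was 13. VEGFA, the vascular growth factor, measured 39.8 to 52.3 CPM against 87.3 to 95.3 CPM (log2 fold change 1.03 ± 0.10, adjusted p = 0.000453). CA9, a carbonic anhydrase and marker of low oxygen, measured 4.45, 2.9, 2.39 and 30.5 CPM in siControl and 45.2, 3.72 and 29.6 CPM in siControl_Both. The glycolytic enzyme ALDOC measured 4.07, 1.72, 2.25 and 15.8 CPM against 25.2, 5.94 and 21.3 CPM. For both genes siControl replicate 4 and siControl_Both replicates 1 and 3 were high, the groups overlapped and the test was not passed.

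Of 42 S-phase genes 2 were lower and of 54 G2/M genes 3 were lower, with none higher in either list and medians of -0.15 and -0.16, against 6.98% of all genes higher and 7.67% lower. Small falls were more common. At an unadjusted p under 0.05 in edgeR, 14 S-phase genes were lower and 1 higher, and 24 G2/M genes were lower and 3 higher. In 12 S-phase and 22 G2/M genes all siControl_Both libraries lay below all siControl libraries, as in 20% of all genes tested. The reverse was seen in 1 and 2 genes. Up to 4 S-phase genes (without siControl_Both replicate 2 or siControl replicate 4) and up to 5 G2/M genes (without siControl_Both replicate 2 or siControl replicate 1) were lower with a library left out. RAD51AP1, a recombination factor, measured 28.3 to 38.9 CPM against 18.9 to 20.9 CPM, and TMPO, a nuclear lamina protein, 288.5 to 337 CPM against 161.6 to 178.1 CPM. MKI67, the Ki-67 antigen, overlapped between the groups at 372.8 to 555.1 CPM and 373.5 to 410.5 CPM (log2 fold change -0.29, adjusted p = 0.112). Of 37 MuvB, DREAM and E2F regulators, 1 was higher and 1 was lower. No gene of the proteasome (32 tested) passed the edgeR test, where 10 were higher and 4 lower at an unadjusted p under 0.05 and DESeq2 called 0. No Wnt target (16 tested) passed it either, where 1 was higher and 1 lower at that unadjusted p and DESeq2 called 1 lower. Of 78 cytosolic ribosomal protein genes 7 were higher and none was lower, against 6.98% of all genes higher.

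Shares of 6.98% higher and 7.67% lower among all genes apply to the other lists too. Of 27 abundant long noncoding RNAs 11 were higher and 3 were lower, and 5 were higher without siControl_Both replicate 2. Of the rest, 7 of 30 integrin and basement membrane genes were higher and 1 was lower, and 8 of 56 nuclear respiratory chain genes were higher and 1 was lower. Glucocorticoid-responsive genes held 7 higher and 2 lower of 23, among which NFKBIA, MT2A, MT1X and ANGPTL4 also stand on other lists, and FKBP5, the chaperone that gives the list its usual readout, was below the fold threshold at a log2 fold change of -0.51. Heat shock genes held 2 higher and 0 lower of 22 (4 higher without siControl replicate 2), and p53 targets 3 higher and 3 lower of 32 (6 lower without siControl_Both replicate 2 or 3). Canonical histones held 1 higher and 5 lower of 21, and their mRNAs are poorly caught by polyA capture.

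The assignment of reads differed between the groups. Between 7.68% and 7.92% of read pairs were not aligned in siControl_Both, against 1.97% to 2.12% in siControl. Pairs that matched several genes made up 7.88% to 8.12% against 9.32% to 9.6%, and 77% to 77.5% against 80.8% to 81.2% fell on genes. Of the gene counts, mitochondrially encoded mRNAs took 4.41% to 5.82% in siControl_Both and 3.14% to 3.71% in siControl, while mitochondrial rRNAs took 0.763% to 0.992% and 1.55% to 1.82%. Small RNA classes took 0.0074% to 0.00795% against 0.0155% to 0.0188%. Each of these measures had no overlap and a p of 0.0571 in the exact permutation test, two-sided, which is the smallest p that 3 against 4 libraries allow, and an adjusted p of 0.0914 over 16 measures. No overlap was seen in 10 of the 16 measures. The groups overlapped in total pairs, pairs on genes, ribosomal protein mRNAs, the 10 highest genes and genes with 10 counts or more. Pairs aligned at more than 1 place overlapped too, at 3.04% to 3.35% in siControl_Both and 2.73% to 3.84% in siControl. How far read assignment enters the gene values was not tested.

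Single noncoding and histone transcripts differed, although long noncoding RNA genes as a class were called at 15.6% (132 higher and 133 lower of 1702), near the 14.7% of all genes. MALAT1, an abundant nuclear long noncoding RNA (ENSG00000251562.8, chromosome 11, 65497640 to 65508073), measured 683.6, 797.3, 686.1 and 700.9 CPM in siControl and 177.3, 150.1 and 169.3 CPM in siControl_Both (log2 fold change -2.11 ± 0.10, adjusted p = 3.71e-05). Exons annotated on the opposite strand in GENCODE V44 cover 83.7% of it, and the strand setting of the counting was not given. NEAT1, the nuclear long noncoding RNA of paraspeckles, went the other way at 207.5 to 361.5 CPM against 475.7 to 526.8 CPM. The largest fall under the naming rule was BCYRN1 (chromosome 2, 47335315 to 47335514), a short noncoding RNA made by RNA polymerase III, at 21.9, 21, 29.2 and 12.5 CPM against 0.639, 0.575 and 0.133 CPM. RN7SL2, a signal recognition particle RNA, fell by 2.34 on the log2 scale. In GENCODE V44 it shares all of its exon bases with another gene on the same strand. The replication-dependent histone H4C3, whose mRNA has no polyA tail, had 105, 121, 171 and 107 counts in siControl and 1, 1 and 2 counts in siControl_Both.

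Mitochondrial transcripts moved in opposite directions. MT-CO3 and MT-ND4, subunits of the respiratory chain, rose by 0.98 and 0.96. Of 13 mitochondrially encoded mRNAs, 5 were higher and none was lower, against 6.98% of all genes higher and 7.67% lower. The ribosomal RNAs MT-RNR1 and MT-RNR2 fell by 1.29 and 0.88. MTND2P28, a nuclear pseudogene of a mitochondrial gene (chromosome 1, 629640 to 630683), measured 6.4, 6.68, 5.97 and 4.9 CPM against 76.6, 76.8 and 82 CPM, with a log2 fold change of 3.72 ± 0.11 (adjusted p = 2.47e-06). Reads of such a pseudogene cannot be kept apart from those of its mitochondrial source where the sequences are alike.

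Processed pseudogenes and genes with shared exons were read apart, because read pairs that match several genes are left out of the counts. Of 378 processed pseudogenes, 39 were higher and 83 were lower, or 32.3% called, against 13.9% of 13277 protein-coding genes. Of 438 genes with most of their exon bases shared on the same strand, 54 were higher and 43 were lower. That is 22.1% called, against 14.1% of 13000 genes without such sharing. NPM1P27, a copy of NPM1, measured 26.9 to 33.6 CPM against 4.43 to 5.88 CPM. SRXN1, an NRF2 target (chromosome 20, 646615 to 653200), measured 11.1, 12.7, 11.7 and 12.6 CPM in siControl and 0.457, 0.958 and 0.619 CPM in siControl_Both, and 90.7% of its exon bases are shared with another gene on the same strand. TXNDC5 (60.9% shared), PDF (79.3%) and RAB5IF (41.4%) fell by 3.78, 3.27 and 2.92. COX8A, a respiratory chain subunit with 35.4% of its exon bases shared, rose from between 16.1 and 20.1 CPM to between 64.2 and 73.7 CPM. Values of these genes are to be read with caution for that reason. The shared bases were taken from GENCODE V44, whereas the reads were counted on GENCODE V29, so the overlap at counting may differ. How far shared exons enter the differences between the groups was not tested. PCSK1N, a neuroendocrine protease inhibitor, and ENDOG, a mitochondrial nuclease, have no shared exon bases on their own strand and fell by 2.95 and 2.97 with tight groups, at 31.8 to 39.7 CPM against 3.26 to 6.26 CPM and 10.4 to 11.2 CPM against 1.28 to 1.46 CPM. ENDOG is overlapped on the opposite strand over 40.1% of its exon bases.

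Base composition moved with the comparison. Tested genes were put into 5 groups of like size by GC content. In the group with the lowest GC content (27.8% to 41%), 77 were higher and 417 were lower, with a median log2 fold change of -0.22. The group at 52% to 58.5% held 317 higher and 159 lower genes, with a median of 0.16. In the group with the highest GC content (58.5% to 83.9%) 272 were higher and 278 lower, with a median of 0.05. With GC content and transcript length corrected per library, 891 genes were higher and 998 were lower, and the NF-kB list held 26 higher and 0 lower genes with a median of 1.44.

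**Figure D4:**
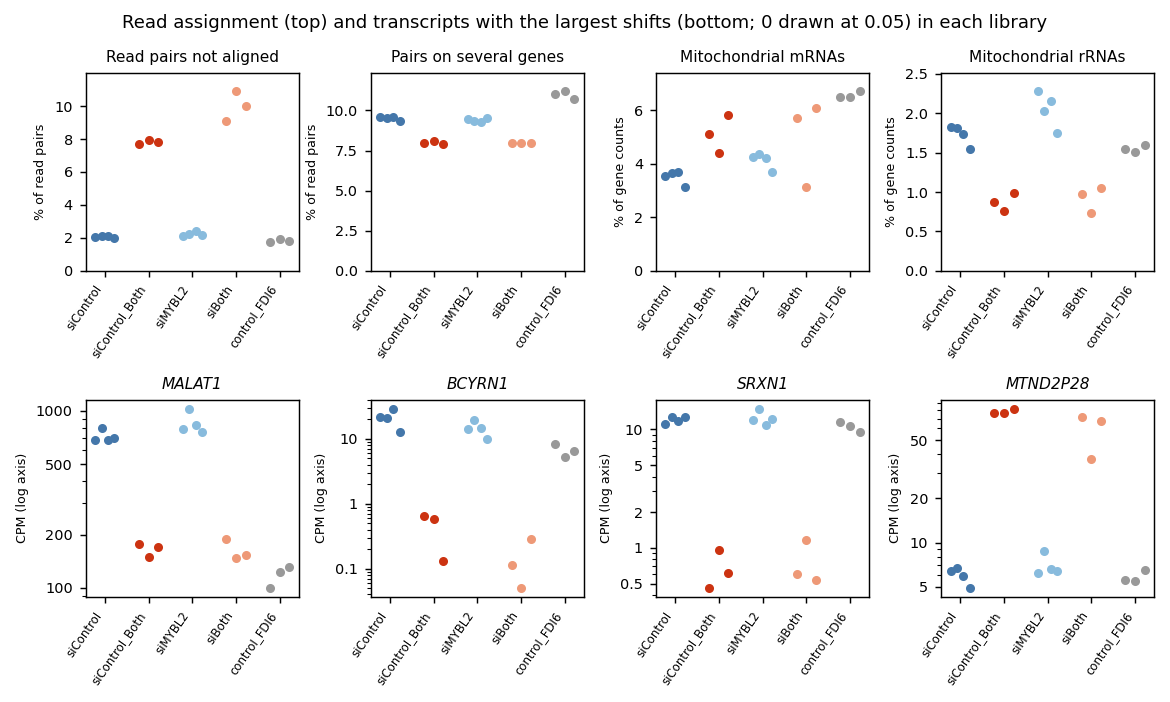
Shares of read pairs and gene counts (top, %, axes from 0) and CPM on a log axis of 4 transcripts (bottom, 0 drawn at 0.05) in each library of 5 groups, where each point is a library. The share of pairs not aligned lies at 1.97% to 2.12% in siControl and 7.68% to 7.92% in siControl_Both, and siBoth libraries lie nearer to siControl_Both than to siControl in every panel apart from 1 siBoth library for mitochondrial mRNAs.

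Knockdown libraries of the same experiments were compared to ask whether the genes that differed between the controls also differed between libraries with other siRNAs. The siBoth libraries were set against the siMYBL2 libraries, which share no library with the controls and received MYBL2 siRNA in both groups, while only siBoth received FOXM1 siRNA as well. Of 16523 genes tested, 1555 were higher (9.41%) and 1895 were lower (11.5%) in siBoth. Of 1104 genes higher in siControl_Both and tested in both comparisons, 1098 had a positive siBoth over siMYBL2 log2 fold change, 821 were called higher (74.4%) and 0 were called lower. Of 1203 genes lower in siControl_Both, 1195 had a negative value, 890 were called lower (74%) and 0 were called higher. Over all 15738 genes tested in both comparisons, 49.5% had a positive value, 9.51% were called higher and 11.5% lower.

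The gene groups were read in these libraries as well. In NF-kB targets and chemokines, 32 of 35 tested were higher in siBoth than in siMYBL2 and 0 were lower, with a median of 1.66. CXCL8 measured 201.1, 71.2, 155.4 and 24.3 CPM in siMYBL2 and 1090.6, 730 and 441.1 CPM in siBoth. Replicate 4 was the lowest of its group in siControl, siMYBL2 and siFOXM1, where it measured 10.8 CPM. Cholesterol genes held 12 higher and 0 lower members of 25, and PLIN2 measured 33 to 46.7 CPM in siMYBL2 and 92.9 to 110.2 CPM in siBoth. KRT8 measured 3239.5 to 4453.6 CPM and 1738.5 to 2606.8 CPM. MALAT1 measured 757.8 to 1028.8 CPM and 147.6 to 189.9 CPM, and the pairs not aligned made up 2.1% to 2.4% and 9.09% to 10.9%. Of 13 mitochondrially encoded mRNAs, 2 were higher in siBoth and 0 were lower, with a median of 0.12. They took 3.12% to 6.07% of the gene counts in siBoth and 3.68% to 4.35% in siMYBL2, so these groups overlapped. IFIT1, lower between the controls, was not called between the knockdowns (log2 fold change -0.33). The histone gene H1-4 was lower between the controls (log2 fold change -2.20) and not called between the knockdowns, where its log2 fold change was 0.78.

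**Figure D5:**
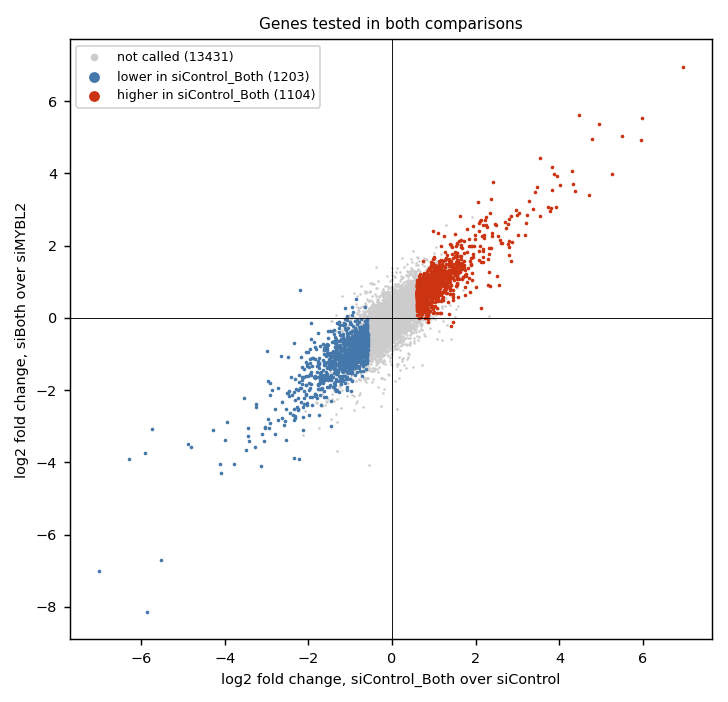
Log2 fold change of siControl_Both over siControl (x axis) and of siBoth over siMYBL2 (y axis) for 15738 genes tested in both, where each point is a gene and colour marks genes higher or lower in siControl_Both. Of the 1104 higher genes 1098 lie above 0 on the y axis, and of the 1203 lower genes 1195 lie below 0.

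The controls of the FDI-6 compound experiment (control_FDI6, 3 libraries) gave another set of A549 values. No siRNA was listed for them, and the study calls this control both DMSO and untreated. Their handling thus differs from that of the siRNA controls, and no test was made. CXCL8 at 1.81 to 2.72 CPM, ICAM1 at 0.391 to 0.545 CPM and NFKBIA at 46.3 to 48.2 CPM were below every siControl library, and the other genes of their list were not tallied in these libraries. PLIN2 (24.6 to 26 CPM), FDPS (29.6 to 34.4 CPM) and HYOU1 (95.1 to 101.9 CPM) were also below both siRNA control groups. MALAT1, at 99.6 to 130.8 CPM, and KRT19, at 55.7 to 57.2 CPM, lay nearer to siControl_Both. SRXN1 (9.54 to 11.5 CPM) and MTND2P28 (5.52 to 6.54 CPM) lay nearer to siControl, and KRT8, at 5149.4 to 5711 CPM, lay above both.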

How the data were processed

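The authors deposited raw counts for each library, as read pairs assigned to a gene, beside HTSeq's own rows for unassigned pairs. Per the labels and the methods of the study, polyA libraries were sequenced as paired ends on a NovaSeq instrument, reads were trimmed with Trim Galore, aligned to hg38 with STAR and counted with HTSeq on GENCODE V29. Tool versions and the strand setting are not given in the sources used here. RNA isolation is described differently in separate places.

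Groups and replicate numbers came from the labels. The fits used edgeR 4.0.16 (R 4.3.3) with TMM scaling, filterByExpr, the quasi-likelihood test on the groups compared and Benjamini-Hochberg adjustment. A call needed a change of over 1.5-fold and an adjusted p below 0.05. On simulated data the fit recovered 86% of 2-fold and 100% of 4-fold changes, with 15 false calls. In that simulation 100 genes were changed at each fold, drawn only from genes above a minimum CPM, and the rest were left unchanged. It does not cover genes at low counts. Library measures were compared with an exact permutation test. Identifiers were matched to GENCODE V44 (58207 of 58721 found), which gave symbols, positions, classes and exon overlap. Named genes were MYBL2 and FOXM1, the 12 largest rises and falls without overlap at a mean of at least 100 counts, and up to 4 members per list at a mean of at least 50 counts, plus its first. Further genes, such as CXCL8, CXCL1, CCL2, VIM and MKI67, were chosen after their values were seen. The members and lists were chosen with earlier results of these data known. No libraries of a group agreed within sampling noise (chi-square per gene 11.454 to 60.716). Alternatives were scaling by RLE or upper quartile, DESeq2 1.42.0, other filters, glmTreat, a GC and length correction, the replicate block, protein-coding genes only, all 18 siRNA libraries together and leaving out each library.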

Additional observations from a re-analysis of the deposited data

Results flagged for a closer look

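In the siControl group of 4 libraries, the gap between 1 library and the next was examined for each of 114 named genes against Dixon's critical value. It was passed in 10 genes. The nominal rate of 1 of 20 assumes normal and independent values. Some of these genes were chosen after their values were seen, so the 10 cannot be set against that rate. Replicate 4 was the distant library in 6 of the 10. It was high for CA9 (30.5 CPM), ALDOC (15.8 CPM), ANGPTL4 (67.4 CPM), CDH1 (87.8 CPM) and PCSK1N (39.7 CPM) and low for RAD51AP1 (28.3 CPM). Replicate 3 was high for H4C3 (6.01 CPM) and low for SYVN1 (52.7 CPM). Replicate 2 was high for MALAT1 (797.3 CPM). Replicate 1 was high for TNF (0.0831 CPM), with the other siControl libraries at 0. None of 16 library measures was distant in this way. No named gene had groups that were separated in one direction between the controls and in the opposite direction between siBoth and siMYBL2.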

How the results depend on the processing

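The counts of genes higher and lower in siControl_Both, and in siBoth over siMYBL2, stayed within 1.5 times under all alternatives run except glmTreat. That test asks for a change above 1.5-fold itself and left 187 higher and 215 lower genes between the controls. Leaving out each library in turn gave 820 to 1139 higher and 931 to 1232 lower genes between the controls, and 1158 to 1644 higher and 1313 to 1855 lower genes between the knockdowns. The replicate numbers did not pair the control libraries, since same-numbered libraries correlated at -0.002, 0.295 and 0.061 in their deviations from the group means, and siControl replicate 4 had no partner. With the replicate number as a block, 1141 genes were higher and 1129 lower between the controls, and 1460 higher and 1735 lower between the knockdowns. The block gave 15 higher genes of glycolysis and hypoxia in place of 8. Not every library correlated best with its own number. Of 98 named genes called, KLF2, RELA, VIM, TWIST1 and SLC39A10 lost the call with the block, and RELA, NFKB2, VIM, JUND, RAD51AP1, SLC39A14, SLC39A10 and SLC30A1 with the GC and length correction. Under glmTreat 41 of the 98 lost the call, among them CXCL8, CXCL1, PTGS2, EPCAM, KRT8, KRT19, HMGCS1 and NEAT1. In at least 1 fit with a library left out, 16 of the 98 lost it. No named gene changed direction. The cause of these losses was not tested. With 3 and 4 libraries, the exact permutation test could not pass 0.05, and genes with few counts were not tested.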

Other observations

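The replicate numbered 4 stood apart in the same genes in each group of the single knockdown experiment. CA9 measured 30.5 CPM in siControl replicate 4, 37.6 CPM in siMYBL2 replicate 4 and 26.6 CPM in siFOXM1 replicate 4, and at most 6.27 CPM in the other 9 libraries of these groups. CDH1 measured 87.8, 77.9 and 90 CPM in the libraries numbered 4 and at most 43.3 CPM in the others. No explanation for the libraries numbered 4 was tested.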
